A study of Homo sapiens with 16 samples.

Results

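The genes described here are *ATF4* and 8 genes of the stress response it is known to drive, *ATF5*, *DDIT3*, *DDIT4*, *TRIB3*, *ASNS*, *SLC7A5*, *SLC7A11* and *CHAC1*. They were chosen by name, as 9 of the 60623 genes counted in each RNA-Seq library, and all 9 had a row in each of the 16 libraries. All 9 passed the filter on low counts and were among the 17218 genes tested in the experiment with PARP1 inhibition (PARPi) and the 18606 tested in the *EVI1* knockdown. Of the 9, *CHAC1* had at least 10 counts in 10 libraries and *ASNS* in 14, and the other members in all 16.

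All libraries came from MUTZ-3, an established acute myeloid leukemia line with an inv(3) rearrangement, grown with GM-CSF and with medium conditioned by the bladder carcinoma line 5637. In the PARPi experiment, 1 library was made from untreated cells at 0 h. The others came from cells kept for 12, 24 or 48 h with talazoparib (1 µM), with olaparib (10 µM) or with their vehicle DMSO. In the knockdown experiment, cells were transduced with pLKO.1 lentivirus carrying a non-targeting control (NTC) or 1 of the *EVI1* hairpins shEVI1-2531 and shEVI1-2532, selected with puromycin, and harvested on day 3 or day 6. Every condition had 1 library. The puromycin selection and the viral vector were shared by NTC and both hairpins, and the medium by all libraries. The files labelled as shEVI1-2531 carry another clone number in their names, so the identity of this hairpin rests on the sample labels.

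ATF4 is the transcription factor at the end of the integrated stress response. Stress kinases phosphorylate the initiation factor eIF2, which slows translation of most mRNAs but favours that of *ATF4*, and ATF4 then switches on genes for amino acid supply, redox balance and, under lasting stress, cell death. Its protein is set largely by translation, so the mRNA levels given here are those of the gene and of its targets, not of ATF4 activity. In leukemia cells this program is best known for answering shortage of amino acids such as asparagine and cystine.

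Total counts ran from 55999673 to 72681943 among PARPi libraries and from 95523038 to 120716213 in the knockdown. A count of 3, taken as the floor of detection, equalled 0.0413 to 0.0536 CPM, the usual measure of counts scaled to library size, in the former and 0.0249 to 0.0314 in the latter. Relative to NTC of the same day, *EVI1* (listed as *MECOM*) stood at 33.0% and 46.1% with shEVI1-2531 on days 3 and 6, and at 12.6% and 11.2% with shEVI1-2532. All 8 markers of myeloid progenitors, *MECOM*, *CD34*, *KIT*, *CD33*, *MPO*, *PTPRC*, *SPI1* and *CEBPA*, were detected in every library, whereas *MS4A1* and *KRT5*, of B cells and bladder epithelium, were at 0 counts in all 16. In bulk RNA, fewer cells of a type and less RNA per cell cannot be told apart. With 1 library per condition, the p-values below measure only how far time points, days and treatments depart from the fitted model, and not the spread between cultures.

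The promoters were searched for the 8 letters TGATGNAA, on both strands, which are the core shared by the composite C/EBP-ATF response elements through which ATF4 acts. RefSeq windows on GRCh38.p14, from 250 bases before to 50 after a transcription start, existed for 8 of the 9 members, and 2 of these 8 genes (25%) held the motif. Of all 27305 genes with such windows, 4.46% held it. The matches are shown, with 11 bases on either side in lower case and the motif in capitals, because both lie in genes at the extremes of the values below, *ASNS* with the lowest inhibitor ratios at 48 h and *CHAC1* with the lowest counts.
ASNS, chr7:97872458-97872487, minus strand: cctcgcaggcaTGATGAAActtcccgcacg
CHAC1, chr15:40953251-40953280, plus strand: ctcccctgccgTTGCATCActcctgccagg
The *ASNS* match reads along the strand of the gene and lies 68 to 61 bases before the start of the window's transcript. The *CHAC1* match reads on the opposite strand and lies 209 to 202 bases before it. In GENCODE 29 both stretches lie in or at the first exon of longer transcripts of the same gene, so the windows are not upstream of every isoform. For the other 6 genes these letters did not occur in the windows searched.

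Levels are given as CPM scaled by edgeR's TMM factors within each experiment. The members spanned a wide range of expression. Per kilobase of merged exons, the DMSO library at 12 h had 151 CPM for *ATF4*, 108 for *SLC7A5*, which encodes the light chain of a large neutral amino acid transporter, 16.03 for *DDIT4* and 14.8 for *ATF5*. In the same library and on the same scale, *TRIB3* stood at 8.89, *DDIT3* at 3.41, *SLC7A11* at 0.846, *ASNS* at 0.116 and *CHAC1*, with 1 count, at 0.00716.

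The transcription factors were followed first. *ATF4* lies on chromosome 22 from 39519695 to 39522685 (GRCh38, plus strand). Its processed copies *ATF4P3* and *ATF4P4*, to which the authors' counting could assign shared reads, had 59 to 473 and 11 to 152 counts, against 13867 to 80887 for *ATF4*. It had 879 CPM in untreated cells. With DMSO it had 380, 407 and 745 CPM at 12, 24 and 48 h. After olaparib the levels were 325, 285 and 330 CPM, and after talazoparib 331, 252 and 279. At each time point both inhibitor libraries lay below DMSO, and untreated cells and DMSO at 48 h were the highest libraries. *DDIT3*, which encodes CHOP, a factor that promotes cell death under lasting stress, had 10.6 CPM untreated, 4.46, 5.10 and 12.6 with DMSO, 4.07, 5.93 and 10.5 after olaparib, and 6.23, 7.74 and 10.6 after talazoparib. It stood higher at 48 h than at 12 h in all 3 treatments. *ATF5*, a related factor whose translation is controlled like that of *ATF4*, had 74.7 CPM untreated, 43.6, 39.1 and 25.1 with DMSO, 42.2, 35.5 and 24.4 after olaparib, and 41.2, 35.1 and 28.6 after talazoparib. Its levels at 48 h were the lowest of each treatment. Reads of *DDIT3* could not be told apart from those of its opposite-strand neighbours *MARS1* and *MBD6*, nor those of *ATF5* from *NUP62*, where counting did not use strand, which the sources used here do not state. *NUP62* had 2234 to 15038 counts, *ATF5* 1335 to 6050.

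The feedback and growth inhibitors started from high levels in untreated cells. *DDIT4*, an inhibitor of mTORC1, had 402 CPM untreated, 33.0, 37.6 and 113 with DMSO, 46.8, 64.5 and 83.3 after olaparib, and 51.9, 76.8 and 69.8 after talazoparib. The inhibitor libraries lay above DMSO at 12 and 24 h and below it at 48 h. *TRIB3*, a pseudokinase that restrains ATF4 and CHOP, had 99.7 CPM untreated and 30.5, 29.1 and 58.0 with DMSO. It had 27.9, 28.6 and 20.4 CPM after olaparib and 28.9, 27.9 and 21.4 after talazoparib, so the treatments parted at 48 h.

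Among the genes of amino acid supply and glutathione, *ASNS*, which encodes asparagine synthetase, had low counts. It had 124 counts (1.79 CPM) in untreated cells, 35, 32 and 153 counts (0.515, 0.433 and 2.34 CPM) with DMSO, 30, 19 and 7 (0.461, 0.272 and 0.128) after olaparib, and 33, 14 and 4 (0.444, 0.239 and 0.0806) after talazoparib. DMSO at 48 h was the highest library of the 10 and talazoparib at 48 h the lowest. The gene lies on chromosome 7 from 97851677 to 97872542 (minus strand). It overlaps *AC079781.5* on the same strand (97851688 to 97972985), to which 9 to 41 counts were assigned. How reads shared by both genes were counted is not stated in the sources used here, so the level of *ASNS* may be understated. *SLC7A5* had 903 CPM untreated, 514, 347 and 472 with DMSO, 462, 303 and 157 after olaparib, and 481, 262 and 190 after talazoparib. It was lowest in both inhibitor libraries at 48 h. *SLC7A11*, the cystine importer of system xc-, had 30.8 CPM untreated, 8.16, 5.58 and 24.7 with DMSO, 8.51, 12.5 and 16.2 after olaparib, and 8.32, 11.02 and 17.6 after talazoparib. The inhibitor libraries stood above DMSO at 24 h and below it at 48 h. *CHAC1*, which encodes an enzyme that degrades glutathione and lies on chromosome 15 from 40952962 to 40956512 (plus strand), had 10 counts untreated, 1, 9 and 12 with DMSO, 11, 10 and 13 after olaparib, and 10, 8 and 8 after talazoparib, which leaves its ratios with wide counting intervals.

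**Figure D1:**
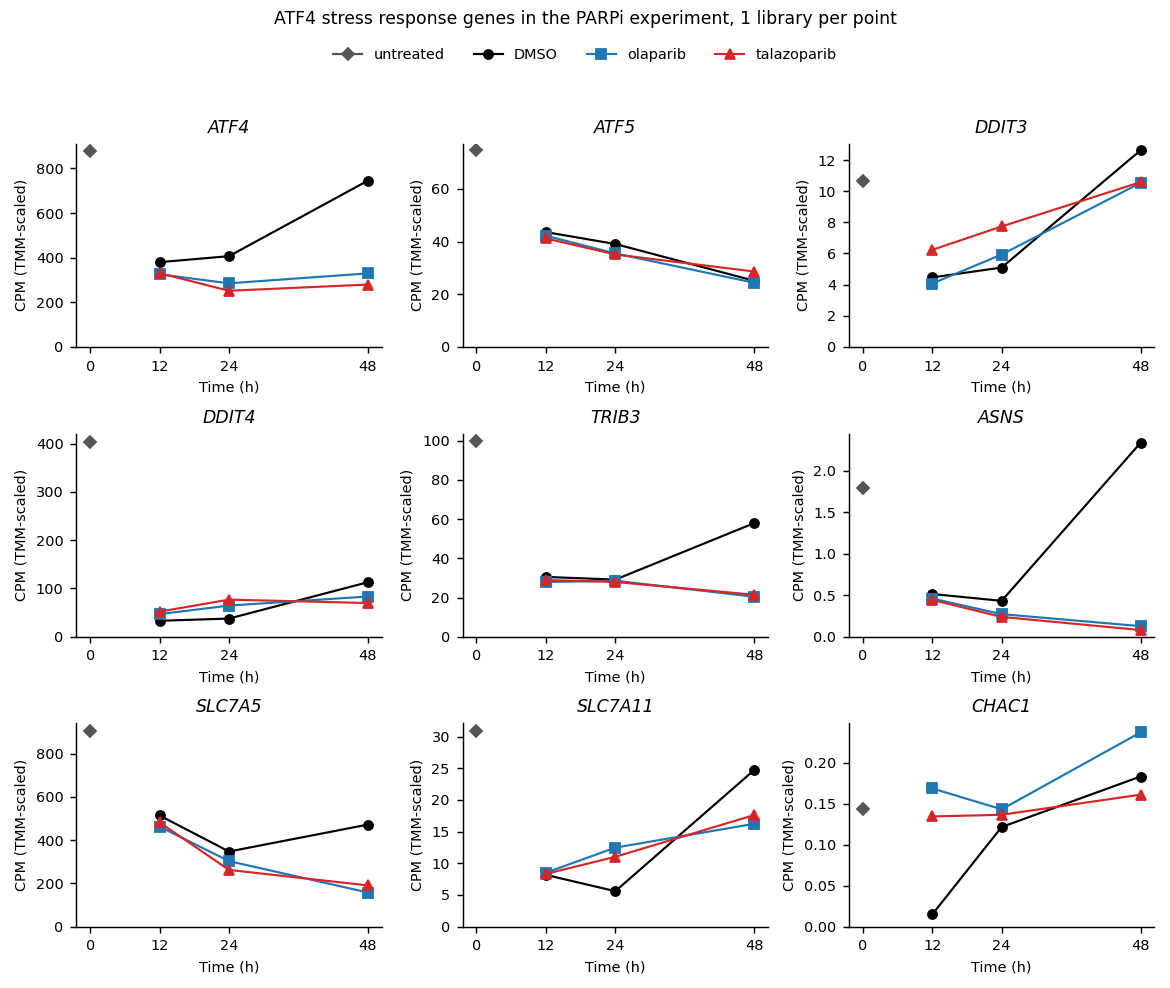
Levels (TMM-scaled CPM, linear axes from 0) of the 9 genes against time in hours in the 10 PARPi libraries, 1 library per point, coloured by treatment. *ATF4*, *TRIB3* and *ASNS* stand higher at 48 h than at 24 h with DMSO, and the inhibitor libraries at 48 h lie below DMSO, and *DDIT4* is far higher in untreated cells (402 CPM) than in any other library.

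Every member had a lower level in the DMSO library at 12 h than in untreated cells. Ratios between single libraries are given on the log2 scale with 95% exact intervals that cover counting error only, and a member was counted where the ratio passed 1 in either direction. By that rule 7 members were lower, against 5.34% of all tested genes, and none was higher, against 3.12%. For such shares of all genes a prior count of 2 was added, which draws ratios of low counts towards 0. The members' ratios were taken without it. *DDIT4* had the largest ratio among the well counted members, −3.61 (−3.67 to −3.55), which left 8.20% of the untreated level. *SLC7A11* followed at −1.92 (−2.06 to −1.78), *ASNS* at −1.79 (−2.38 to −1.24) and *TRIB3* at −1.71 (−1.78 to −1.64). *ATF4* had −1.21 (−1.23 to −1.19) and *DDIT3* −1.25 (−1.45 to −1.06). *CHAC1* had −3.29 (−8.73 to −0.48), from 10 counts and 1 count. *ATF5* (−0.78) and *SLC7A5* (−0.81) did not pass 1. The untreated library differed from DMSO at 12 h in time as well as in vehicle, and these cannot be told apart.

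With DMSO alone, most of the genes then rose between 12 and 48 h. In the fit with a time slope for each inhibitor, the edgeR quasi-likelihood test (Benjamini-Hochberg adjusted) called 6 members higher, against 6.46% of all tested genes, and 1 lower, against 7.81%. *DDIT4* rose by 1.78 on the log2 scale (standard error 0.21, adjusted p = 1.05e-14), *SLC7A11* by 1.62 (0.22, adjusted p = 4.05e-11) and *DDIT3* by 1.51 (0.24, adjusted p = 1.33e-07). *ASNS* rose by 2.29 (0.44, adjusted p = 1.77e-05), *ATF4* by 0.97 (0.21, adjusted p = 0.000242) and *TRIB3* by 0.93 (0.21, adjusted p = 0.000373). *ATF5* fell by 0.80 (0.22, adjusted p = 0.00592). *CHAC1* had 2.63 (1.06, adjusted p = 0.0755) and *SLC7A5* −0.12 (0.21, adjusted p = 0.748). The median over the 9 members was 1.51, and that over all tested genes 0.02. In single-library ratios 5 members passed 1 upwards, against 5.78% of genes, and none downwards, against 3%. Between 12 and 24 h, the ratios of *ATF4* (0.10), *DDIT3* (0.19), *DDIT4* (0.19) and *TRIB3* (−0.07) were small, and those of *SLC7A11* (−0.55), *SLC7A5* (−0.57) and *ASNS* (−0.25) were negative. Between 24 and 48 h the ratio of *ATF4* was 0.87, that of *DDIT3* 1.31, *DDIT4* 1.59, *TRIB3* 0.99, *SLC7A11* 2.15 and *ASNS* 2.43. The contrast compares 1 DMSO library with 1 other. Its error is a common trend over all genes, from the scatter of the inhibitor libraries about their slopes. The gene's own scatter did not enter, so small p-values do not show that a rise would recur. With DESeq2, *SLC7A11* lost its call (adjusted p = 0.179), and no adjusted p was given for *ASNS*. Against untreated cells, DMSO at 48 h had log2 ratios of −0.24 for *ATF4*, 0.25 for *DDIT3*, 0.39 for *ASNS*, 0.35 for *CHAC1* and −0.32 for *SLC7A11*. It stood further below for *DDIT4* (−1.83), *ATF5* (−1.57), *SLC7A5* (−0.94) and *TRIB3* (−0.78).

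Against DMSO at 48 h, 4 members were lower by more than 1 on the log2 scale after olaparib, against 7.38% of all tested genes, and none was higher, against 11.1%. The same 4 were lower after talazoparib, against 14.8% of genes, and none was higher, against 15%. After olaparib, *ATF4* stood at 44.2% of DMSO (log2 ratio −1.18, −1.20 to −1.15), *TRIB3* at 35.2% (−1.51, −1.60 to −1.41) and *SLC7A5* at 33.4% (−1.58, −1.62 to −1.55). *ASNS* stood at 5.47% (−4.19, −5.53 to −3.12), from 7 against 153 counts. After talazoparib, the values were 37.5% for *ATF4* (−1.42, −1.44 to −1.39), 36.9% for *TRIB3* (−1.44, −1.54 to −1.34), 40.4% for *SLC7A5* (−1.31, −1.34 to −1.28) and 3.45% for *ASNS* (−4.86, −6.75 to −3.47). *DDIT4*, *SLC7A11* and *DDIT3* had smaller negative ratios with both inhibitors, from −0.69 to −0.25. *ATF5* had −0.04 after olaparib and 0.19 after talazoparib, and *CHAC1* 0.37 (−0.88 to 1.63) and −0.19 (−1.68 to 1.23). Both inhibitors share the DMSO library, so they are not independent. The median of the 9 ratios was −0.61 after olaparib and −0.69 after talazoparib, against −0.02 and −0.06 over all tested genes. Scaling to library totals in place of TMM moves all ratios at 48 h by −0.18 for olaparib and −0.21 for talazoparib, and those of the knockdown by −0.30 to −0.14.

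At 12 h the ratios of *ATF4*, *TRIB3*, *ASNS* and *SLC7A5* lay between −0.22 and −0.08 with both inhibitors. At 24 h *ATF4* had −0.51 (−0.54 to −0.49) after olaparib and −0.69 (−0.72 to −0.66) after talazoparib. *DDIT4* went the other way, with 0.78 (0.71 to 0.85) and 1.03 (0.96 to 1.10). *SLC7A11* had 1.16 (0.99 to 1.33) and 0.98 (0.80 to 1.16), where the DMSO library had its lowest level. The high ratios of *CHAC1* at 12 h, 3.52 (0.74 to 8.95) and 3.19 (0.38 to 8.63), rest on 1 count in the DMSO library.

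**Figure D2:**
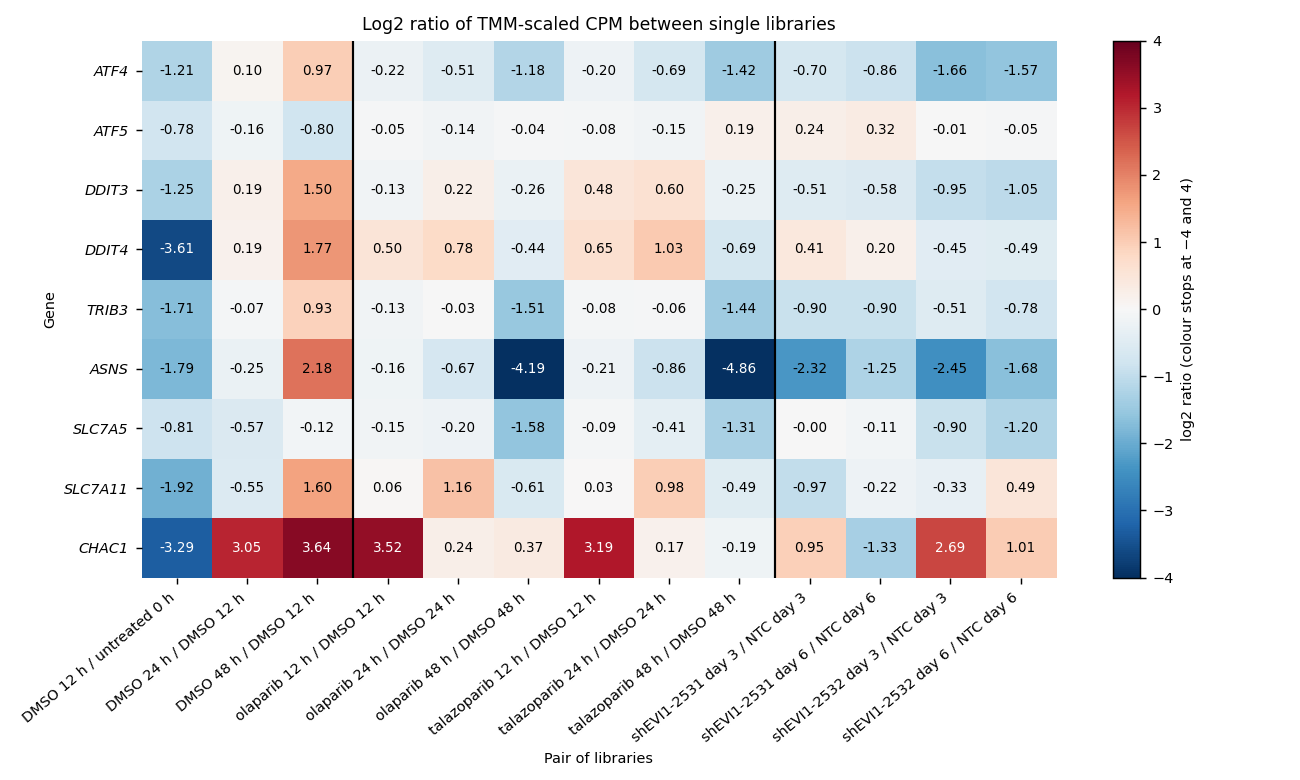
Log2 ratios of TMM-scaled CPM between pairs of single libraries (columns) for the 9 genes (rows), red higher and blue lower, with colour ending at −4 and 4. All 9 genes are negative in DMSO at 12 h against untreated cells, and *ASNS* has the lowest ratios in the map, −4.19 after olaparib and −4.86 after talazoparib at 48 h.

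Averaged over the 3 time points and both inhibitors, no member passed the test. Among all tested genes, the edgeR quasi-likelihood test (Benjamini-Hochberg adjusted) called 3.16% higher and 1.01% lower. At an unadjusted p under 0.05, a mark that 17.1% of all tested genes passed on the lower side and 35.1% in either direction, 4 members were lower, namely *ATF4* with −0.71 (95% interval −1.11 to −0.31, adjusted p = 0.0527), *ASNS* with −1.80 (−3.34 to −0.26, adjusted p = 0.101), *SLC7A5* with −0.64 (−1.16 to −0.12, adjusted p = 0.0917) and *TRIB3* with −0.57 (−1.13 to −0.0046, adjusted p = 0.14). *DDIT4* had 0.28 (−0.29 to 0.85), *SLC7A11* 0.15 (−0.44 to 0.73), *DDIT3* 0.12 (−0.24 to 0.48), *CHAC1* 0.69 (−0.40 to 1.79) and *ATF5* −0.03 (−0.26 to 0.20). With DESeq2's Wald test the average was called lower for 3 members, *ATF4* (adjusted p = 0.00376), *ASNS* (adjusted p = 0.0143) and *SLC7A5* (adjusted p = 0.0342), and that test called 9.27% of all genes lower and 10.7% higher. The average also depended on single libraries. Without DMSO at 12 h these 3 members were called lower, along with 12.8% of all genes, *ATF4* with −0.94, *ASNS* with −2.64 and *SLC7A5* with −0.88. Without DMSO at 48 h *ATF4* stood at −0.42, and *DDIT4* was called higher with 0.74 (adjusted p = 0.0182), along with 2.77% of all genes. Leaving out a single library at 24 h took away nearly all calls of the average. Of all genes, 0.0646% were then called higher without DMSO, 0.0528% without olaparib and 0.0351% without talazoparib. In each of these fits 0% were called lower.

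The inhibitor effect changed with time for 5 of the members, in calls that were all lost without the DMSO library at 48 h. The fit gave the mean slope of both inhibitor effects per doubling of hours, and the edgeR quasi-likelihood test (Benjamini-Hochberg adjusted) called 5 members lower, against 9.82% of all tested genes, and none higher, against 10%. The slope of *ASNS* was −2.04 log2 units (standard error 0.32, adjusted p = 1.08e-08), that of *TRIB3* −0.67 (0.13, adjusted p = 8.66e-06) and that of *SLC7A5* −0.64 (0.13, adjusted p = 1.32e-05). For *DDIT4* it was −0.56 (0.13, adjusted p = 0.000226) and for *ATF4* −0.53 (0.13, adjusted p = 0.000734). *SLC7A11* had −0.29 (0.14, adjusted p = 0.12), *CHAC1* −1.11 (0.62, adjusted p = 0.21), *DDIT3* −0.21 (0.15, adjusted p = 0.369) and *ATF5* 0.08 (0.13, adjusted p = 0.729). The median over the members was −0.56, against −0.01 over all tested genes. This fit had 2 residual degrees of freedom and gave every gene the error of the common trend, so the gene's own scatter did not enter, and with DESeq2 the call of *DDIT4* was lost (adjusted p = 0.327).

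Without DMSO at 48 h, 0 members had a called lower slope and 1, *SLC7A11*, a higher one with 1.04 (adjusted p = 0.0166), in the same edgeR test, which then called 0.229% of all genes lower and 1.28% higher. The mean slope then covers 12 to 24 h only, so an inhibitor effect at 48 h cannot enter it. In that fit *ASNS* had −0.56 (adjusted p = 0.95), *ATF4* −0.38 (adjusted p = 0.843) and *SLC7A5* −0.16 (adjusted p = 0.968), while *DDIT4* (0.34, adjusted p = 0.858) and *TRIB3* (0.07, adjusted p = 0.99) changed sign. Without olaparib at 48 h, *ASNS* alone was called, with 3.27% of all genes lower, and *ATF4* had −0.45 (adjusted p = 0.084), *SLC7A5* −0.38 (adjusted p = 0.193), *TRIB3* −0.44 (adjusted p = 0.22) and *DDIT4* −0.45 (adjusted p = 0.172). *DDIT4* also lost its call without talazoparib at 48 h (−0.22, adjusted p = 0.411), and *ATF4* without DMSO at 12 h (−0.67, adjusted p = 0.131), where the slopes of *ASNS* (−3.70), *TRIB3* (−1.41), *DDIT4* (−1.45) and *SLC7A5* (−1.13) were steeper. The slope of *SLC7A11* ranged from −1.60 without DMSO at 12 h to 1.04 without DMSO at 48 h. The contrast of DMSO at 48 and 12 h kept its 7 calls without any one of the other 7 libraries. Its values rest on those DMSO libraries, so leaving out others could hardly move them (*ATF4* 0.963 to 0.972). This is therefore no test of the rise, and the contrast was not read without either of those DMSO libraries.

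The slope is the change in the inhibitor libraries less that in the DMSO libraries, so it shares its DMSO libraries with the rise described above, and the sides were set apart. Between 12 and 48 h, *ATF4* changed by 0.02 (−0.01 to 0.05) in the olaparib libraries and by −0.24 (−0.27 to −0.21) in the talazoparib libraries, against 0.97 with DMSO. *SLC7A5* had −1.55 (−1.59 to −1.52) and −1.34 (−1.37 to −1.31), against −0.12 with DMSO. For *ATF4* the change over time was larger in the DMSO libraries, and for *SLC7A5* in the inhibitor libraries. *TRIB3* (−0.45 and −0.43) and *ASNS* (−1.85 and −2.46) were lower in the inhibitor libraries and higher with DMSO. *DDIT4* (0.83 and 0.43), *SLC7A11* (0.93 and 1.08) and *DDIT3* (1.37 and 0.76) were higher at 48 h with each inhibitor too, by less than with DMSO. The summed level of 6 monocyte markers, all detected in every library, ranged from 485 to 672 CPM in untreated and DMSO libraries. At 48 h it stood at 2393 CPM after olaparib and 4488 CPM after talazoparib. Of the 6, *LYZ* ranged from 158 to 5524 CPM over the 16 libraries and the next highest, *ITGAM*, reached 400 CPM, so high sums are mostly *LYZ*. The part of this summed level in the values above was not tested.

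No difference between talazoparib (1 µM) and olaparib (10 µM) was called for any member in the fit over the time points. No gene of the 17218 was called (0% higher and 0% lower) in the edgeR quasi-likelihood test (Benjamini-Hochberg adjusted), with 354 at an unadjusted p under 0.05, none of them a member. For *ATF4* the difference, talazoparib minus olaparib, was −0.10 (95% interval −0.57 to 0.36), for *TRIB3* 0.04 (−0.61 to 0.69), for *SLC7A5* 0.04 (−0.57 to 0.64) and for *ASNS* −0.13 (−2.08 to 1.82). *DDIT3* had the smallest p, with 0.36 (−0.05 to 0.78, adjusted p = 0.952). Even the narrowest interval, that of *ATF5*, ran from −0.19 to 0.35, so like action is not shown, and the doses of the compounds differed. Tested singly, olaparib called no member, against 0.639% of genes higher and 0% lower, with 2 members and 18.4% of genes at an unadjusted p under 0.05, and talazoparib called none, against 3% and 0.999%, with 3 members and 36.3% of genes at an unadjusted p under 0.05. By DESeq2's Wald test, talazoparib called *ATF4* and *ASNS* lower, along with 10.3% of all genes.

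**Figure D3:**
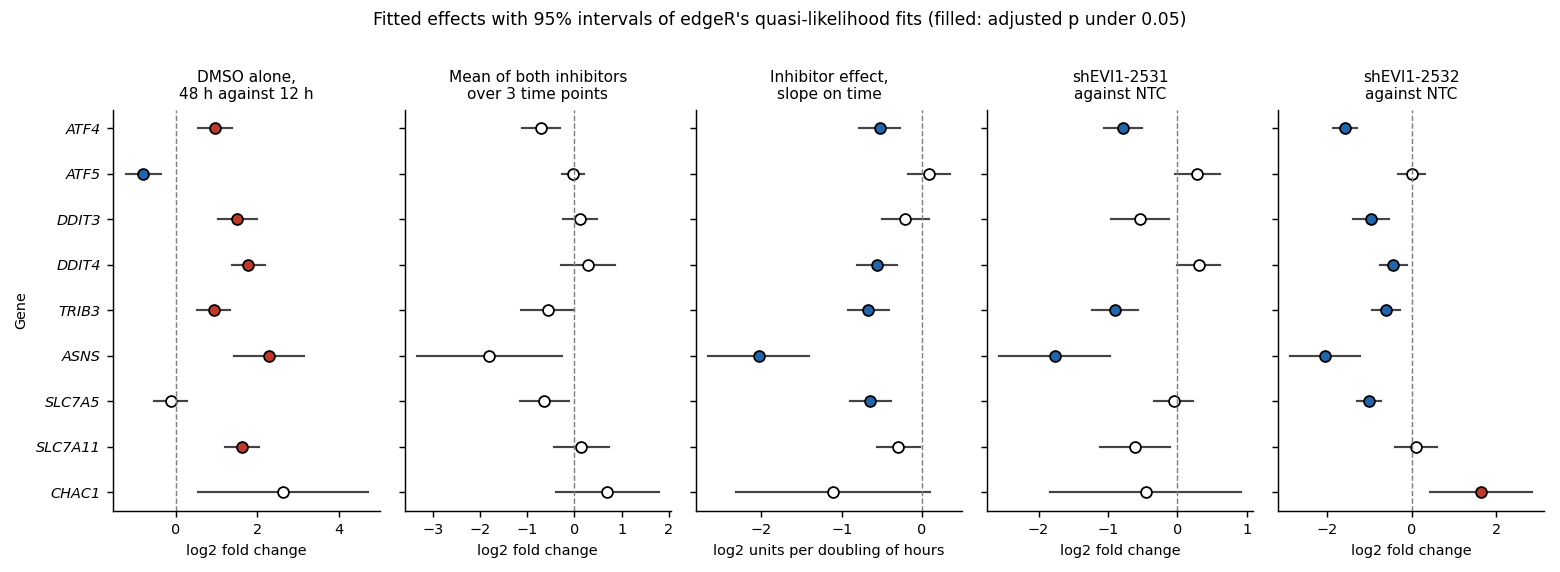
Fitted values (points) and 95% intervals (lines) of the 9 genes in 5 tests, as log2 fold changes or, in the third panel, log2 units per doubling of hours, red where called higher, blue where called lower and open where not called. The slope on time, whose calls are lost without DMSO at 48 h, and both hairpins call *ATF4*, *ASNS* and *TRIB3* lower, and the mean over inhibitors and time points calls no gene.

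The knockdown experiment asked what follows loss of *EVI1* itself. *ATF4* had 636 and 597 CPM with NTC on days 3 and 6, 390 and 328 with shEVI1-2531, and 201 and 202 with shEVI1-2532. The order NTC, shEVI1-2531, shEVI1-2532 was the same on both days, without overlap. *DDIT3* had 9.62 and 7.10 CPM with NTC, 6.73 and 4.74 with shEVI1-2531, and 4.98 and 3.42 with shEVI1-2532. *ATF5* had 33.3 and 40.2 CPM with NTC, 39.4 and 50.2 with shEVI1-2531, and 33.1 and 38.7 with shEVI1-2532. For *ATF5* the log2 ratios of shEVI1-2532 to NTC were close to 0 on both days (−0.01 and −0.06), those of shEVI1-2531 0.24 and 0.32.

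Of the feedback genes, *TRIB3* had 42.7 and 59.9 CPM with NTC, 22.8 and 32.0 with shEVI1-2531, and 30.0 and 35.0 with shEVI1-2532. *DDIT4* had 44.5 and 49.1 CPM with NTC, 59.1 and 56.3 with shEVI1-2531, and 32.7 and 35.0 with shEVI1-2532, so the hairpins lay on opposite sides of NTC on both days. *ASNS* had 180 and 115 counts (1.42 and 0.907 CPM) with NTC, 25 and 46 (0.284 and 0.381 CPM) with shEVI1-2531, and 23 and 27 (0.259 and 0.283 CPM) with shEVI1-2532. Each hairpin library lay below both NTC libraries. *SLC7A5* had 357 and 621 CPM with NTC, 356 and 574 with shEVI1-2531, and 192 and 271 with shEVI1-2532. *SLC7A11* had 10.5 and 7.52 CPM with NTC, 5.37 and 6.47 with shEVI1-2531, and 8.37 and 10.6 with shEVI1-2532. Both shEVI1-2531 libraries lay below the other 4, and NTC and shEVI1-2532 overlapped. *CHAC1* had 6 and 29 counts with NTC, 8 and 11 with shEVI1-2531, and 27 and 44 with shEVI1-2532.

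**Figure D4:**
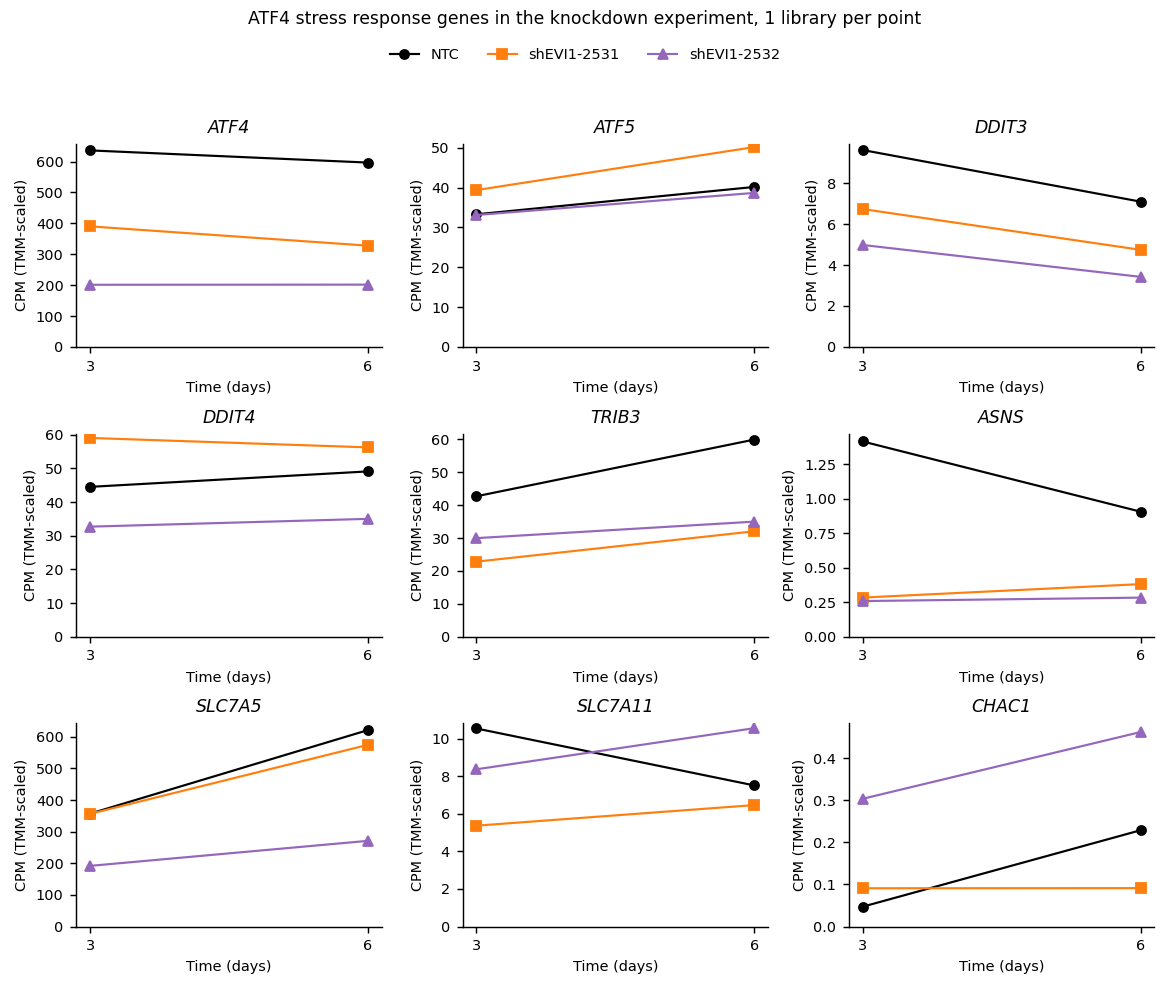
Levels (TMM-scaled CPM, linear axes from 0) of the 9 genes on days 3 and 6 in the 6 knockdown libraries, 1 library per point. On both days *ATF4* and *DDIT3* are highest with NTC and lowest with shEVI1-2532, and *DDIT4* lies above NTC with shEVI1-2531 and below it with shEVI1-2532.

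With shEVI1-2531, the edgeR quasi-likelihood test (Benjamini-Hochberg adjusted) called 3 members lower, against 7.9% of all tested genes, and none higher, against 9.49%. *ATF4* fell by 0.78 on the log2 scale (standard error 0.13, adjusted p = 0.00141), *TRIB3* by 0.90 (0.16, adjusted p = 0.00197) and *ASNS* by 1.77 (0.37, adjusted p = 0.00624). *DDIT3* had −0.54 (0.19, adjusted p = 0.0715), *SLC7A11* −0.61 (0.23, adjusted p = 0.0894), *DDIT4* 0.31 (0.14, adjusted p = 0.167), *ATF5* 0.29 (0.15, adjusted p = 0.214), *CHAC1* −0.46 (0.63, adjusted p = 0.672) and *SLC7A5* −0.06 (0.13, adjusted p = 0.815). The call of *ASNS* was lost without NTC on day 3 (−1.32, adjusted p = 0.1) and without shEVI1-2531 on day 3 (−1.38, adjusted p = 0.0611). By DESeq2's Wald test, which called 8.37% of all genes lower, and on library totals, where 12.2% were lower, *DDIT3* and *SLC7A11* were called lower too.

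With shEVI1-2532, 6 members were called lower, against 19.9% of all tested genes, and 1 higher, against 21.2%, in the edgeR quasi-likelihood test (Benjamini-Hochberg adjusted). *ATF4* fell by 1.58 (standard error 0.13, adjusted p = 2.73e-06), *SLC7A5* by 1.02 (0.13, adjusted p = 6.53e-05), *ASNS* by 2.05 (0.38, adjusted p = 0.00103) and *DDIT3* by 0.97 (0.19, adjusted p = 0.00185). *TRIB3* fell by 0.61 (0.15, adjusted p = 0.00756) and *DDIT4* by 0.44 (0.14, adjusted p = 0.0281). *CHAC1* rose by 1.64 (0.56, adjusted p = 0.0331), while *SLC7A11* had 0.09 (0.23, adjusted p = 0.778) and *ATF5* −0.0013 (0.15, adjusted p = 0.995). The median over the members was −0.61, against −0.00031 over all tested genes. The call of *CHAC1* was lost with DESeq2 (adjusted p = 0.109), on library totals (adjusted p = 0.0773), and without NTC on day 3 (0.91), shEVI1-2532 on day 3 (1.40) or shEVI1-2532 on day 6 (1.98). That of *DDIT4* was lost without shEVI1-2532 on day 3 (−0.39), NTC on day 6 (−0.39) or shEVI1-2532 on day 6 (−0.47), and that of *TRIB3* without shEVI1-2532 on day 6 (−0.48).

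The hairpins differed from each other for 5 members, although they share their NTC libraries. The difference shEVI1-2532 minus shEVI1-2531 was tested in the same fit, where 12.2% of all tested genes were higher and 12% lower in the edgeR quasi-likelihood test (Benjamini-Hochberg adjusted). It was −0.80 for *ATF4* (standard error 0.13, adjusted p = 9e-04), −0.96 for *SLC7A5* (0.13, adjusted p = 0.000305) and −0.74 for *DDIT4* (0.14, adjusted p = 0.00297). It was 2.10 for *CHAC1* (0.60, adjusted p = 0.024) and 0.70 for *SLC7A11* (0.23, adjusted p = 0.0429). *ASNS* had −0.29 (95% interval −1.15 to 0.58) and *TRIB3* 0.29 (−0.05 to 0.62). The difference of *CHAC1* was not called without shEVI1-2532 on day 3 (1.84) or shEVI1-2531 on day 6 (1.41), and that of *SLC7A11* without shEVI1-2531 on day 3 (0.53) or shEVI1-2532 on day 6 (0.45). The former was also lost with DESeq2 (adjusted p = 0.0688) and the latter on library totals (adjusted p = 0.0989). The monocyte markers summed to 348 and 440 CPM with NTC, 1354 and 1305 with shEVI1-2531, and 4884 and 6174 with shEVI1-2532 on days 3 and 6, an order opposite to that of *ATF4*. The part of these markers, whose high sums are mostly *LYZ*, in the differences was not tested. With both hairpins as 1 group, the calls of *ATF4* (−1.13, adjusted p = 0.0954), *ASNS* (−1.91, adjusted p = 0.0534) and *TRIB3* (−0.75, adjusted p = 0.0853) were lost.

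Other known ATF4 target genes, of which 25 of 28 were tested, were set beside the members, with calls by the edgeR quasi-likelihood test (Benjamini-Hochberg adjusted). With DMSO alone from 12 to 48 h, 12 were higher and 1 lower, against 6.46% and 7.81% of all tested genes, with a median of 0.58. *ADM2*, a peptide hormone, rose by 2.66 (adjusted p = 1.97e-18), *VLDLR*, a lipoprotein receptor, by 4.90 (adjusted p = 6.95e-12) and *ATF3*, a stress-induced factor, by 1.75 (adjusted p = 1.5e-11), whereas *CBS*, an enzyme of transsulfuration, fell by 3.13 (adjusted p = 1.49e-14). *VLDLR* had low counts, with a mean log2 CPM of −1.27 in the fit without slopes, against −0.774 for *ASNS*. In that fit *CBS* varied widely, with standard errors of 1.84 for olaparib and 1.54 for talazoparib. The inhibitor slope, which rests on the same DMSO libraries, was lower for 16 and higher for 3, against 9.82% and 10% of genes, with a median of −0.56. It was −1.91 for *ADM2* (adjusted p = 5.3e-24), −1.29 for *GPT2*, a mitochondrial alanine transaminase (adjusted p = 1.16e-17), −1.36 for *STC2*, a secreted glycoprotein (adjusted p = 1.49e-16), and 1.496 for *NUPR1*, a stress-induced nuclear protein (adjusted p = 5.76e-10). Without DMSO at 48 h, the mean slope covers 12 to 24 h only. It was then called lower for 0 of the 25 targets and higher for 1, with a median of −0.09. At an unadjusted p under 0.05 there were 3 targets. Over all tested genes 219 were then higher and 39 lower. Averaged over time points and inhibitors, 3 targets were higher and none lower, against 3.16% and 1.01% of genes, *SESN2*, a sestrin that restrains mTORC1, with 0.78 (adjusted p = 0.0347), *PPP1R15A*, which encodes the eIF2 phosphatase subunit GADD34, with 0.69 (adjusted p = 0.0367) and *CEBPB*, a partner of ATF4, with 0.92 (adjusted p = 0.046). These calls were lost without the 24 h libraries, where the average called 0% of genes in either direction.

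With shEVI1-2531, 5 of the 25 targets were higher and 5 lower in the same test, against 9.49% and 7.9% of all tested genes. With shEVI1-2532, 7 were higher and 12 lower, against 21.2% and 19.9%. With shEVI1-2532, *GPT2* fell by 2.66 (adjusted p = 8.58e-07) and *PCK2*, the mitochondrial PEP carboxykinase, by 1.85 (adjusted p = 3.47e-06), while *TXNIP*, the thioredoxin-interacting protein, rose by 2.12 (adjusted p = 1.38e-06) and *CEBPB* by 1.62 (adjusted p = 6.68e-06).

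Serine synthesis and the charging of tRNAs, both known to be under ATF4 control, were examined as separate lists with the same test. Of 5 tested serine and one-carbon enzymes, 3 were higher with DMSO from 12 to 48 h, against 6.46% of all tested genes, and 4 had a lower inhibitor slope, against 9.82%. *PHGDH*, which starts serine synthesis, rose by 1.17 with DMSO (adjusted p = 1.02e-06), had a slope of −2.58 (adjusted p = 2.17e-72) and fell by 1.81 with shEVI1-2531 (adjusted p = 6.86e-05) and by 5.55 with shEVI1-2532 (adjusted p = 4.56e-08). With shEVI1-2532, 4 of the 5 were lower, against 19.9% of genes, with shEVI1-2531 *PHGDH* alone, against 7.9%. Of 20 cytosolic aminoacyl-tRNA synthetases, 11 had a lower slope and none a higher one, against 9.82% and 10% of genes, with a median of −0.38, led by *AARS1* with −0.95 (adjusted p = 1.76e-11) and *GARS1* with −0.83 (adjusted p = 5.98e-09). Without DMSO at 48 h, where the mean slope covers 12 to 24 h only, none of the 20 synthetases was called by edgeR. Their median was then −0.14, with 0 at an unadjusted p under 0.05, while *PHGDH* kept its call with −1.41 (adjusted p = 0.000108). With DMSO alone 3 were higher and 3 lower, against 6.46% and 7.81% of genes. With shEVI1-2531 4 were lower and none higher, against 7.9% and 9.49%, and with shEVI1-2532 7 were lower and 2 higher, against 19.9% and 21.2%, led by *MARS1* with −1.51 (adjusted p = 3.51e-06) and *AARS1* with −1.30 (adjusted p = 1.73e-05). A list of 17 genes held those for the eIF2 kinases, eIF2 and eIF2B, and also *EIF2A*, *PPP1R15B*, *DELE1*, *OMA1* and *GCN1*. Of these 17, 3 were higher and 1 lower with DMSO over time, against 6.46% and 7.81% of genes. The slope was lower for 2 and higher for 0, against 9.82% and 10%. With shEVI1-2531 2 were lower and 0 higher, against 7.9% and 9.49%. With shEVI1-2532 3 were lower and 1 higher, against 19.9% and 21.2%.

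**Figure D5:**
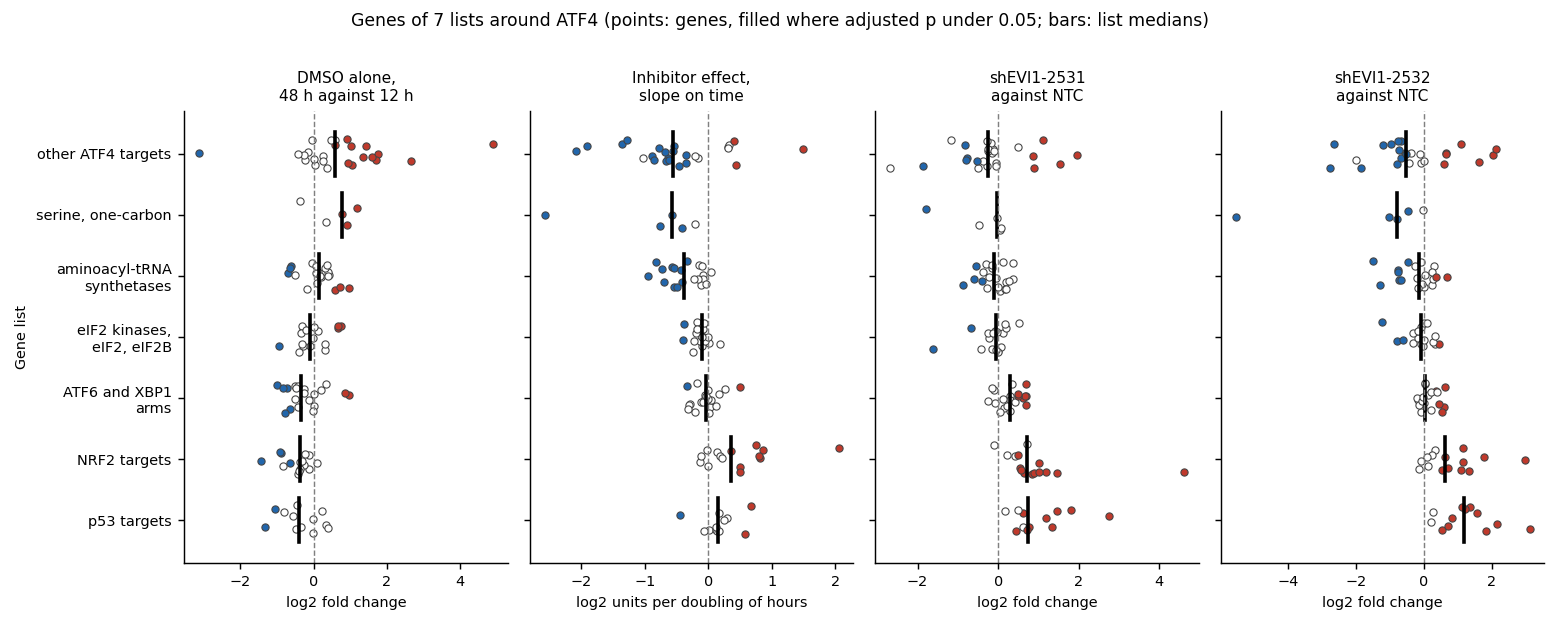
Fitted values of the tested genes (points) of 7 gene lists in 4 tests, as log2 fold changes or log2 units per doubling of hours, filled red or blue where called higher or lower, with list medians as black bars and vertical scatter without meaning. Other ATF4 targets have medians of 0.58 with DMSO over time and −0.56 for the inhibitor slope (−0.09 without DMSO at 48 h), and the NRF2 and p53 lists lie to the right with both hairpins.

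The members did not all vary alike. Over the 16 libraries, with levels on the log2 scale centred within each experiment, Pearson's r between pairs of members ranged from −0.36 for *CHAC1* and *SLC7A5* to 0.86 for *ASNS* and *TRIB3*, with 0.86 for *ATF4* and *ASNS* and 0.77 for *ATF4* and *TRIB3*. The mean over the 9 members was highest in untreated cells (1.28) and DMSO at 48 h (0.75) and lowest in DMSO at 12 h (−0.38) and talazoparib at 48 h (−0.35). Of 17012 other genes, those most like this mean were *STC2* (r = 0.95), *ADM2* (0.93), *VEGFA* (0.92), *KLF9* (0.91) and *VAMP2* (0.87). These values describe 16 libraries from 2 experiments that differ in depth. *STC2* and *ADM2* are also among the ATF4 targets above.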

How the data were processed

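MUTZ-3 RNA was extracted with the RNeasy Plus kit and sequenced as TruSeq Stranded mRNA libraries of paired 100 bp reads. The authors deposited raw counts per gene for each of the 16 libraries. The submitters' processing notes name STAR, Picard and featureCounts and the build GRCh38. Versions, annotation and strand setting are not given in the sources used here. The authors also deposited TPM, which equal counts over the whole gene span scaled to a common sum (largest relative difference 5e-15), and these were not analysed.

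Genes that reached 10 counts in 3 or more of 9 PARPi libraries, or in 2 or more of 6 knockdown libraries, were normalized with TMM and fitted with edgeR 4.0.16 (R 4.3.3) by quasi-likelihood. The PARPi fit held the hour as a factor and a coefficient per inhibitor (4 residual degrees of freedom), the slope fit a slope of each on log2 hours in addition (2), and the knockdown fit the day and a coefficient per hairpin (2). The untreated library entered only ratios. P-values were adjusted after Benjamini-Hochberg over all genes tested, with a threshold of 0.05. Single-library ratios carry 95% Clopper-Pearson intervals. DESeq2 1.42.0, other normalizations and filters, and left-out libraries were the alternatives. Promoters came from RefSeq (GRCh38.p14) and exon lengths from GENCODE 29. The 9 members and all gene lists were chosen with earlier results of these data known. From each further list, at most 4 genes per comparison with the smallest p are named, and likeness was ranked by Pearson's r of log2 CPM (prior count 2). Reads were counted without molecular identifiers, so intervals and floors cover counting error only.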

Additional observations from a re-analysis of the deposited data

Results flagged for a closer look

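The inhibitor effect at later times differed from that at earlier times for 5 members, by the test of the slope on log2 hours in edgeR's quasi-likelihood fit. In that test 9.82% of all tested genes were lower and 10% higher. The slope was −0.53 for *ATF4*, −0.56 for *DDIT4*, −2.04 for *ASNS*, −0.67 for *TRIB3* and −0.64 for *SLC7A5*, in log2 units per doubling of hours. These slopes rest on 3 time points with 1 DMSO library each, and the DMSO level of *ATF4* was 380 CPM at 12 h and 745 CPM at 48 h. Without the DMSO library at 48 h, none of the 5 was called, and those of *DDIT4* (0.34) and *TRIB3* (0.07) changed sign. The mean slope then covers only 12 to 24 h.

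The hairpins differed from each other for 5 members, by the test of shEVI1-2532 minus shEVI1-2531. In that test 12.2% of all tested genes were higher and 12% lower. The difference was −0.80 for *ATF4*, −0.74 for *DDIT4*, −0.96 for *SLC7A5*, 2.10 for *CHAC1* and 0.70 for *SLC7A11* on the log2 scale. The calls of *CHAC1* and *SLC7A11* were each lost in some of the alternatives. *EVI1* itself stood at 46.1% of NTC with shEVI1-2531 and at 11.2% with shEVI1-2532 on day 6.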

How the results depend on the processing

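Of 1276 alternative values for single members, 1123 kept their direction and their side of the threshold, 46 were newly called, 38 lost a call and 69 changed sign, of which 2 had been called, the slopes of *DDIT4* and *TRIB3* without DMSO at 48 h. Causes were not tested. No paired analysis was possible because every condition had 1 library and all replicate numbers were 1. The hour and the day were already terms of the fits. With a whole time point left out, the slope fit had no residual degrees of freedom. Low counts limit *ASNS* and *CHAC1*. The left-out DMSO libraries, and all left-out libraries of the slope fit, were chosen as alternatives after seeing the data.

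Sign changes were as follows (log2). Upper quartile scaling gave *ATF5* 0.0044 for the inhibitor average. Library totals gave *ATF5* −0.093 for talazoparib and −0.022 for the slope, *SLC7A5* −0.0045 for talazoparib minus olaparib and *SLC7A11* −0.21 for shEVI1-2532. No filter gave *ATF5* −0.0033 for talazoparib. Without 24 h, the average was 0.018 for *ATF5*, −0.029 for *DDIT3*, −0.015 for *DDIT4* and −0.25 for *SLC7A11*, olaparib had −0.0097 for *DDIT4* and −0.28 for *SLC7A11*, talazoparib −0.020 and −0.22, and their difference −0.010 and 0.057. Without 48 h, *DDIT3* had 0.050 for olaparib, *ATF5* −0.11 for talazoparib and −0.017 for the difference, and *SLC7A5* −0.065 for the difference. With no hour in the model, *SLC7A11* had −0.040 for the average, −0.048 for olaparib, −0.033 for talazoparib and 0.015 for the difference, and *ATF5* −0.018 for talazoparib. With both hairpins as 1 group, *DDIT4* had −0.018, *CHAC1* 1.00, *ATF5* 0.15 and *SLC7A11* −0.22.

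Counts of called members changed too. The inhibitor average called 4 lower with no filter, 3 with DESeq2 and 3 without 12 h, where 5.02%, 9.27% and 9.73% of all genes were lower, against 1.01% in the main setting. Talazoparib called 3, 2 and 3, beside 5.17%, 10.3% and 10.2%, and olaparib 1 with no filter, beside 0.376%. Without 48 h each called 1 higher, *DDIT4*, beside 5%, 1.7% and 4.77% for the average, olaparib and talazoparib. Library totals and DESeq2 each called 5 lower with shEVI1-2531, beside 12.2% and 8.37% of genes, and with shEVI1-2532 0 higher, as did at least 50 counts. These 3 settings called 1 higher between hairpins. With both hairpins as 1 group 0 were called in either direction, beside 0.849% of genes higher and 0.806% lower, with 23.7% at an unadjusted p under 0.05. On library totals the median ratio at 48 h was −0.78 for olaparib and −0.91 for talazoparib.

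When each library was left out in turn, these values covered 0 or these counts changed. The average ranged from −0.11 to 0.019 for *ATF5*, −0.029 to 0.29 for *DDIT3*, −0.013 to 0.74 for *DDIT4* and −0.25 to 0.52 for *SLC7A11*. Olaparib ranged from −0.21 to 0.12 for *DDIT3*, −0.054 to 0.70 for *DDIT4* and −0.24 to 0.53 for *SLC7A11*, and talazoparib from −0.11 to 0.066 for *ATF5* and −0.26 to 0.52 for *SLC7A11*. Talazoparib minus olaparib ranged from −0.29 to 0.056 for *ATF4*, −0.030 to 0.14 for *ATF5*, −0.14 to 0.37 for *DDIT4*, −0.84 to 0.48 for *ASNS*, −0.18 to 0.23 for *TRIB3*, −0.56 to 0.026 for *CHAC1*, −0.24 to 0.27 for *SLC7A11* and −0.22 to 0.23 for *SLC7A5*. shEVI1-2531 ranged from −1.15 to 0.73 for *CHAC1* and −0.17 to 0.051 for *SLC7A5*, shEVI1-2532 from −0.029 to 0.038 for *ATF5* and −0.30 to 0.47 for *SLC7A11*, and their difference from −0.65 to 0.12 for *ASNS*. The slope ranged from −0.070 to 0.24 for *ATF5*, −0.65 to 0.25 for *DDIT3*, −1.45 to 0.34 for *DDIT4*, −1.41 to 0.071 for *TRIB3* and −1.60 to 1.04 for *SLC7A11*, with 0 to 6 members called lower and 0 to 1 higher. For the other comparisons, members called lower ranged from 0 to 3 for the average, 0 to 1 for olaparib and 0 to 3 for talazoparib. Members called higher ranged from 0 to 1 for the average, talazoparib and shEVI1-2532, and from 1 to 2 between hairpins.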

Other observations

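Lists of other stress pathways were read in the same fits, with calls by the edgeR quasi-likelihood test (Benjamini-Hochberg adjusted). The list of NRF2 targets, which answer oxidative stress, also held *NFE2L2* and *KEAP1*, the genes of NRF2 itself and of its inhibitor. Of its 15 tested genes, 11 were higher with shEVI1-2531 and 9 with shEVI1-2532, against 9.49% and 21.2% of all tested genes, and none was lower with either. *HMOX1*, which encodes heme oxygenase 1, rose by 4.62 (adjusted p = 1.03e-05) and 2.98 (adjusted p = 1.75e-05), and *FTL*, the ferritin light chain, by 1.19 (adjusted p = 0.00038) and 1.76 (adjusted p = 5.53e-06). The inhibitor slope was higher for 8 of the 15, against 10% of genes, with 2.05 for *HMOX1* (adjusted p = 1.98e-34). Without DMSO at 48 h it was higher for 1 of the 15, against 1.28%, *HMOX1*, with 1.09 (adjusted p = 0.0204). Of the ATF4 members, *SLC7A11* is also known as an NRF2 target, and it was called in neither hairpin.

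All 12 p53 targets were higher in the average over inhibitors and time points in the same test, against 3.16% of genes, led by *GDF15*, a secreted stress cytokine, with 4.15 (adjusted p = 0.0021) and *TP53I3* with 1.34 (adjusted p = 0.00549). Without the 24 h libraries the average called 0% of genes higher, so these calls were lost. Without DMSO at 24 h alone it called 0.0646% higher. With shEVI1-2531, 9 of 12 were higher, against 9.49%, and with shEVI1-2532, 10, against 21.2%. *CDKN1A*, the inhibitor of cyclin-dependent kinases, rose by 1.34 (adjusted p = 6.17e-05) and 1.58 (adjusted p = 3.57e-06). Of 20 genes of the ATF6 and XBP1 arms, 7 were higher with shEVI1-2531 and none was lower, against 9.49% and 7.9% of all tested genes. The list median was 0.29. With shEVI1-2532 5 of the 20 were higher, a share near the 21.2% of all genes, and the list median was 0.04. *PDIA6*, a protein disulfide isomerase, rose by 0.68 (adjusted p = 0.00292) and 0.58 (adjusted p = 0.00278).

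Of the markers fixed for bladder epithelium, *KRT17* ranged from 86.0 to 1113 CPM while *KRT5* was at 0 counts in 16 libraries and *CDH1* in 15, and the sum of the list was 145 CPM with DMSO, 897 after olaparib and 976 after talazoparib at 48 h.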
